A study of Danio rerio with 13 samples.

Results

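The genes described here make ribosomes. A list of 51 zebrafish genes for steps of ribosome biogenesis was taken, chosen with earlier results of these data known. A gene was measured where its symbol was the only one that the array annotation gave for a probe set. This held for 44 of the 51 genes, each shown by its probe set with the highest mean over the 13 arrays, among 8793 genes named on the array and 15502 probe sets tested. The genes *polr1d*, *nop56*, *nop10*, *heatr1*, *utp18*, *ddx10* and *ebna1bp2* were not analysed here. The 44 genes were sorted by role into rRNA transcription (3 genes), nucleolar scaffold and chaperone (4), box C/D snoRNP (3), box H/ACA snoRNP (2), small subunit (14) and large subunit (18).

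The arrays held RNA of acute lymphoblastic leukemia (ALL) from adult fish, with 6 arrays of *hMYC-2* ALL, 4 of *hMYC-1* ALL and 3 of *hlk* ALL, and 1 fish per array. Both *hMYC* groups came from the same double-transgenic line, *rag2:hMYC;lck:eGFP*, in which a zebrafish *rag2* promoter, active in immature lymphocytes, drives human *MYC*. The human *MYC* of this line was first described as a fusion to a modified estrogen receptor, and tamoxifen was not given in the study. The *hlk* fish (*hlk;lck:eGFP*) belong to another zebrafish line with T-ALL. Fish of all 3 groups carried *lck:eGFP*, in which a zebrafish *lck* promoter drives GFP, and GFP+ cells, bright and dim together, were sorted from their bodies. The study found that T-ALL of *hMYC* fish was bright and pre-B ALL was dim for this GFP. The study made *hMYC-1* and *hMYC-2* by clustering these same arrays, so values set between them describe that split and are no independent evidence of it. Values are log2 levels of a probe set.

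Ribosomes are assembled in the nucleolus, where RNA polymerase I copies the rRNA genes into a long precursor. Small nucleolar ribonucleoproteins (snoRNPs) modify this precursor, the box C/D kind by adding methyl groups and the box H/ACA kind by making pseudouridine. The small subunit processome and a chain of large subunit assembly factors then cut, fold and export the precursors of both subunits. Genes of this pathway are well known targets of MYC in other vertebrates, and cells that grow fast make much of their products.

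Array medians lay between 4.97 and 5.09. The GAPDH controls differed between their 3′ and 5′ probe sets by 4.69 in *hlk* replicate 1 and by 1.09 to 2.49 in the other 12 arrays, and values without *hlk* replicate 1 are given for each gene whose call changed without it. The highest of 17 control probe sets for bacterial tags read 5.68, and levels at or under it are called within background. Of the 44 genes, 43 were above it in every array, and *wdr74* was not. The *gapdh* gene was within background in *hMYC* ALL, so the size of the 3′ to 5′ gap there says little. Lineage markers differed between the groups. All 8 B lineage markers measured were higher in *hMYC-2* and in *hMYC-1* than in *hlk*, with the mean of the list at 9.59 to 9.96 in *hMYC-2* arrays, 8.64 to 10.02 in *hMYC-1* arrays and 5.71 to 5.91 in *hlk* arrays, where 6 of the 8 were within background. Of 5 T lineage markers, *runx3*, *trac* and *gata3* were lower in both *hMYC* groups. Of the other 2, *tox* was called higher in *hMYC-1* at 0.56 (limma adjusted p = 0.0449) and not called in *hMYC-2* at 0.44 (limma adjusted p = 0.0713), and *cd28* was within background in all 13 arrays. The genes *gata3*, *tox* and *cd28* are named after their values were seen. The T lineage list mean was 4.80 to 5.73 in *hMYC-2* arrays, 4.96 to 6.73 in *hMYC-1* arrays and 6.69 to 7.97 in *hlk* arrays. The part of this difference in lineage in the results below was not tested. In sorted bulk RNA, fewer cells of a type and less RNA per cell cannot be told apart.

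Most ribosome biogenesis genes were higher in *hMYC* ALL than in *hlk* ALL. A gene was called where limma's Benjamini-Hochberg adjusted p over all probe sets was under 0.05. In *hMYC-2* against *hlk*, 26 of the 44 genes rose, *bop1* fell and 17 were not called. Of all probe sets tested, 11.0% were called higher and 13.7% lower in this comparison. In *hMYC-1* against *hlk*, 25 genes rose, *bop1* fell and 18 were not called, beside 9.13% of all probe sets called higher and 9.63% lower. Both comparisons use the same 3 *hlk* arrays.

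Since 43 of the 44 genes were above background in every array, the counts were also set beside the 4544 named genes whose mean was above background. Of these, 19.1% were called higher and 18.8% lower in *hMYC-2*, and 17.0% higher and 14.0% lower in *hMYC-1*, against 59.1% and 56.8% of the ribosome biogenesis genes called higher. The median log2 difference of the 44 genes was 0.48 in *hMYC-2* and 0.53 in *hMYC-1*, against −0.03 and −0.01 in the 4544 genes. The difference was positive for 38 and 39 of the 44 genes, or 86.4% and 88.6%, against 47.6% and 48.9% of the 4544 genes. The plot of cumulative shares shows this shift around the median of the 44 genes. Rises of at least 2-fold that were called numbered 4 in *hMYC-2* and 6 in *hMYC-1*, beside 5.12% and 4.33% of all probe sets. The share at or below a log2 difference of 1 was 90.9% of the 44 genes and 90.3% of the 4544 genes in *hMYC-2*, and 86.4% and 91.5% in *hMYC-1*, so in *hMYC-2* differences above 1 were about as frequent in the 44 genes as in the 4544.

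**Figure D1:**
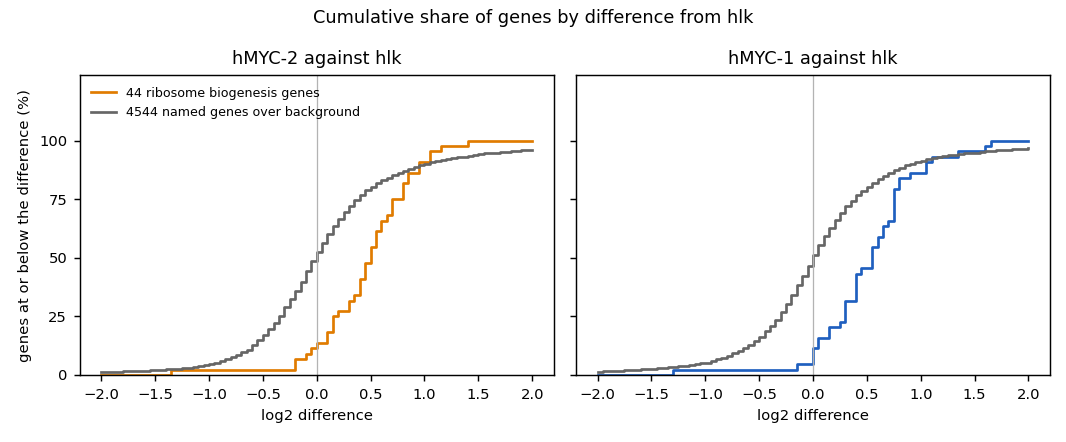
Cumulative share of genes (%) at or below each log2 difference, for *hMYC-2* against *hlk* (left) and *hMYC-1* against *hlk* (right). The colored line holds the 44 ribosome biogenesis genes and the grey line the 4544 named genes with a mean above background; the colored line lies to the right of the grey one around its median, at 0.48 and 0.53.

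In 23 of the 44 genes, all 6 *hMYC-2* arrays were above all 3 *hlk* arrays, and in *bop1* all were below. Of all probe sets, 10.3% were separated upward and 12.8% downward. The 4 *hMYC-1* arrays were all above the *hlk* arrays in 24 genes and below them in *bop1*, beside 11.3% and 11.9% of all probe sets. Without *hlk* replicate 1, 27 genes rose in *hMYC-2* and 25 in *hMYC-1*, beside 10.7% and 9.62% of all probe sets. The count of calls depended on the fit and on the scaling. With the replicate number as a block, 16 genes rose and *bop1* fell in *hMYC-2*, beside 7.54% of all probe sets called higher and 7.91% lower. With each array shifted to equal levels of *actb1* and *eef1a1l1*, a setting added after the data were seen, 14 genes rose in *hMYC-2* and 15 in *hMYC-1*, beside 7.15% and 6.19% of all probe sets. A shrinkage t with a local false discovery rate called 19 genes higher in *hMYC-2* and 12 in *hMYC-1*, beside 7.95% and 4.40% of all probe sets. Across the settings run, the median of the 44 genes was 0.33 to 0.61 in *hMYC-2* and 0.46 to 0.74 in *hMYC-1*.

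**Figure D2:**
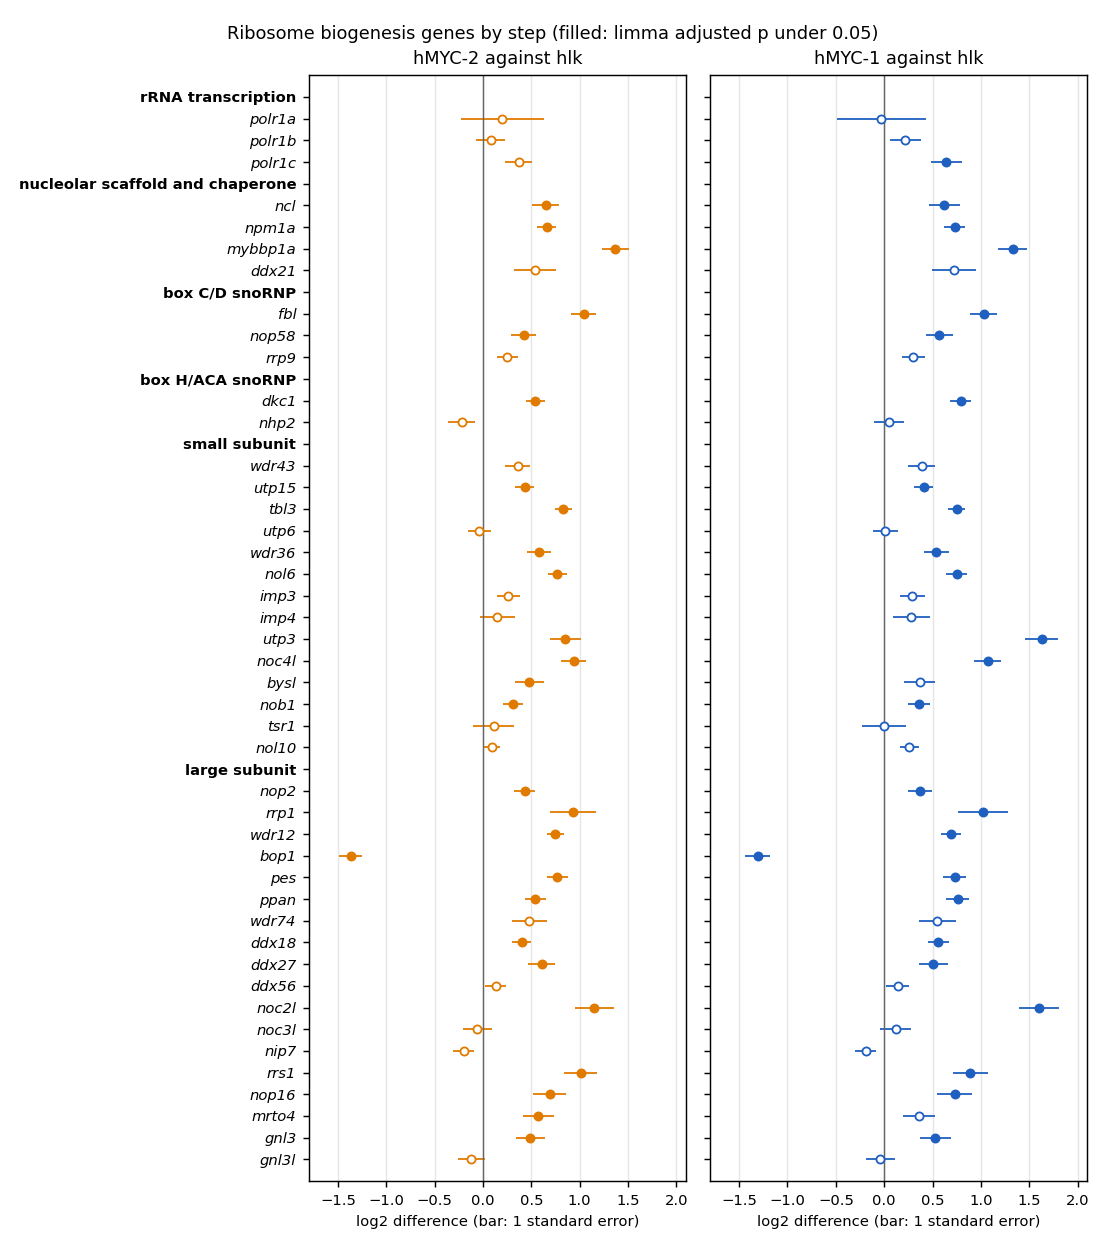
Log2 difference from *hlk* of each of the 44 genes, grouped by step, in *hMYC-2* (left, orange) and *hMYC-1* (right, blue). Bars are 1 standard error and filled points are called by limma; *bop1* is the only filled point left of 0, at −1.37 and −1.31.

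The nucleolar scaffold and chaperone genes were the step with the highest medians, 0.66 in *hMYC-2* and 0.72 in *hMYC-1*, and 3 of the 4 genes rose in each. *mybbp1a* encodes a nucleolar protein that binds Myb and takes part in rRNA synthesis. Its level was 9.36 to 9.79 in *hMYC-2* arrays (median 9.73), 9.89, 9.89, 9.39 and 9.42 in *hMYC-1* arrays, and 8.43, 8.35 and 8.17 in *hlk* arrays. Every *hMYC* array lay above every *hlk* array. The difference was 1.37 ± 0.14 in *hMYC-2* (limma's standard error, n = 6 and 3, limma adjusted p = 1.29e-05) and 1.33 ± 0.15 in *hMYC-1* (n = 4 and 3, limma adjusted p = 4.09e-05), with *mybbp1a* the largest rise among the 44 genes in *hMYC-2*.

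*npm1a* encodes nucleophosmin, a histone and ribosome chaperone that fills the outer nucleolus. It read 11.31 to 11.61 in *hMYC-2* arrays (median 11.41), 11.27, 11.46, 11.55 and 11.74 in *hMYC-1* arrays, and 10.75, 10.85 and 10.73 in *hlk* arrays. The *hlk* arrays lay close together and below all others, and the difference was 0.66 ± 0.10 in *hMYC-2* (limma adjusted p = 0.000483) and 0.73 ± 0.11 in *hMYC-1* (limma adjusted p = 0.000502). *ncl*, which encodes the RNA-binding protein nucleolin, read 11.35 to 11.91 in *hMYC-2* (median 11.48), 11.53, 11.55, 11.48 and 11.49 in *hMYC-1*, and 10.51, 11.12 and 11.05 in *hlk*. The difference was 0.65 ± 0.14 in *hMYC-2* (limma adjusted p = 0.00512) and 0.62 ± 0.16 in *hMYC-1* (limma adjusted p = 0.0139). The low *hlk* value was that of replicate 1, and without it *ncl* still passed, with differences of 0.46 in *hMYC-2* and 0.43 in *hMYC-1* (limma adjusted p = 0.0218 and 0.0476). *ddx21*, an RNA helicase that binds rRNA genes and snoRNAs, was not called, with differences of 0.54 in *hMYC-2* (limma adjusted p = 0.0891) and 0.72 in *hMYC-1* (limma adjusted p = 0.0506), and its *hlk* arrays spread from 10.21 to 11.43. Without *hlk* replicate 2 it was called, at 0.85 in *hMYC-2* and 1.02 in *hMYC-1* (limma adjusted p = 0.00757 and 0.00426), and without *hlk* replicate 1 its differences were 0.24 in *hMYC-2* and 0.41 in *hMYC-1* (limma adjusted p = 0.421 and 0.189).

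**Figure D3:**
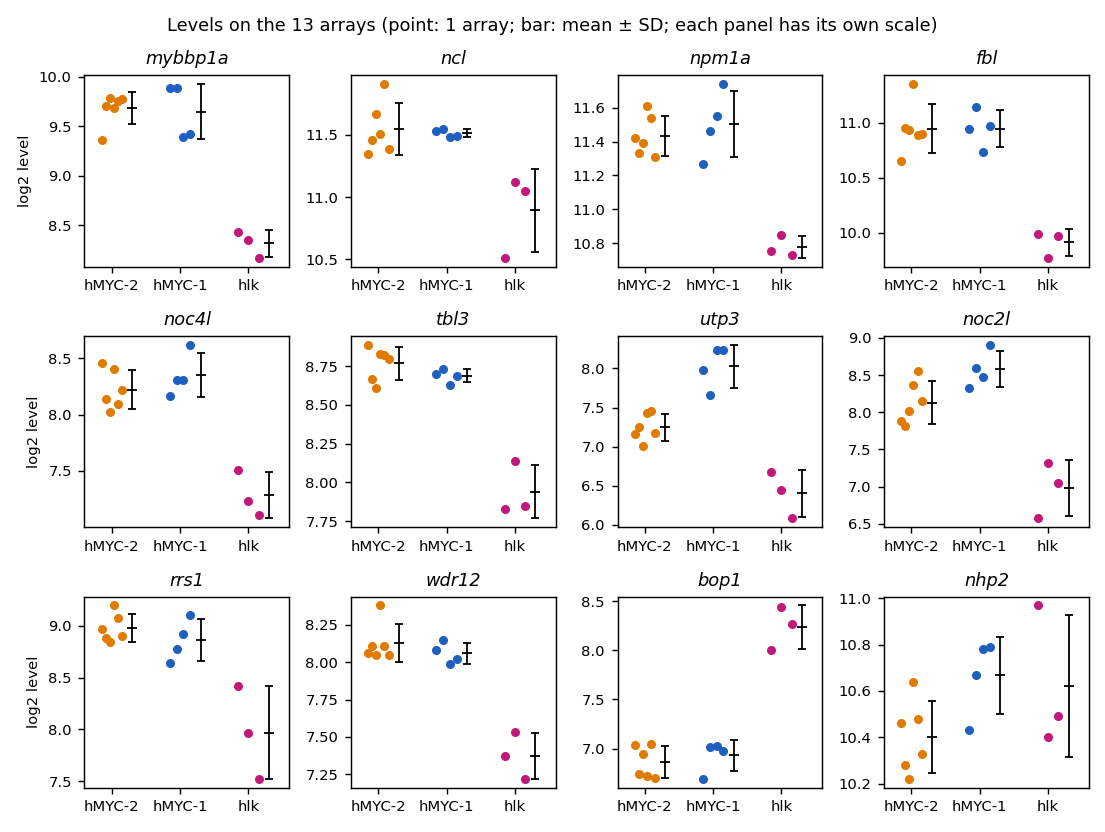
Log2 level of 12 ribosome biogenesis genes on each of the 13 arrays, with *hMYC-2* (orange), *hMYC-1* (blue) and *hlk* (magenta) from left to right; points are arrays, bars are the mean ± SD and each panel has its own axis. Arrays of *hMYC* lie above those of *hlk* for 10 genes, below them for *bop1*, and overlap them for *nhp2*.

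Among box C/D snoRNP genes, 2 of 3 rose in each comparison. *fbl* encodes fibrillarin, the methyltransferase of these particles, and read 10.65 to 11.35 in *hMYC-2* arrays (median 10.91), 10.94, 11.14, 10.73 and 10.97 in *hMYC-1* arrays, and 9.99, 9.77 and 9.97 in *hlk* arrays. Neither *hMYC* group overlapped with *hlk*. The mean was 10.95 ± 0.23 (SD, n = 6) in *hMYC-2* and 10.95 ± 0.17 (n = 4) in *hMYC-1*, against 9.91 ± 0.12 (n = 3) in *hlk*, with differences of 1.04 ± 0.13 in *hMYC-2* (limma adjusted p = 0.000103) and 1.03 ± 0.14 in *hMYC-1* (limma adjusted p = 0.000244). *nop58*, a core protein of the same particles, read 10.56 to 10.78 in *hMYC-2* (median 10.71), 10.66, 10.69, 10.99 and 11.03 in *hMYC-1*, and 10.65, 10.13 and 10.04 in *hlk*. It rose by 0.42 in *hMYC-2* (limma adjusted p = 0.0381) and by 0.57 in *hMYC-1* (limma adjusted p = 0.0147), but the value of *hlk* replicate 1 lay within the *hMYC-2* arrays. The call in *hMYC-2* ended when any 1 of 7 arrays was left out, with a limma adjusted p of up to 0.157. In *hMYC-1* it ended without *hlk* replicate 2 or 3, with a limma adjusted p of up to 0.0678. With the replicate block *nop58* was not called in *hMYC-2* at 0.36 or in *hMYC-1* at 0.52 (limma adjusted p = 0.192 and 0.0793). A second *nop58* probe set was called in *hMYC-2* at 0.96 and not in *hMYC-1* at 0.66 (limma adjusted p = 0.0114 and 0.104). The mean of its probe sets was called in both, at 0.69 in *hMYC-2* and 0.62 in *hMYC-1* (limma adjusted p = 0.000475 and 0.00230). Without *hlk* replicate 1 the probe set shown differed by 0.61 and 0.76 (limma adjusted p = 0.00224 and 0.000827). *rrp9*, specific to the snoRNP of the processome, was not called, with differences of 0.25 in *hMYC-2* and 0.30 in *hMYC-1* (limma adjusted p = 0.125 and 0.115).

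Of the box H/ACA snoRNP genes, *dkc1* rose and *nhp2* was not called. *dkc1* encodes dyskerin, the pseudouridine synthase, and read 8.65 to 9.10 in *hMYC-2* arrays (median 8.78), 9.00, 8.99, 9.14 and 9.07 in *hMYC-1* arrays, and 8.43, 8.18 and 8.18 in *hlk* arrays. All *hMYC* arrays were above the *hlk* arrays. The difference was 0.54 ± 0.10 in *hMYC-2* (limma adjusted p = 0.00205) and 0.79 ± 0.11 in *hMYC-1* (limma adjusted p = 0.000304). *nhp2*, a core protein of the same particles, read 10.22 to 10.64 in *hMYC-2* (median 10.39), 10.43, 10.67, 10.78 and 10.79 in *hMYC-1*, and 10.97, 10.40 and 10.49 in *hlk*. Its groups overlapped, with differences of −0.22 ± 0.14 in *hMYC-2* (limma adjusted p = 0.272) and 0.05 ± 0.15 in *hMYC-1* (limma adjusted p = 0.871). Without *hlk* replicate 1, the highest of its 13 values, the differences were −0.04 in *hMYC-2* and 0.22 in *hMYC-1* (limma adjusted p = 0.852 and 0.299).

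Of the 14 small subunit genes, 8 rose in *hMYC-2* (5 with the replicate block) and 7 in *hMYC-1* (5 with the block), and the medians were 0.40 in *hMYC-2* and 0.38 in *hMYC-1*. *tbl3* and *wdr36* are members of UTP-B, which joins the processome as a block. *tbl3* read 8.61 to 8.89 in *hMYC-2* arrays (median 8.81), 8.70, 8.73, 8.63 and 8.69 in *hMYC-1* arrays, and 7.83, 8.14 and 7.85 in *hlk* arrays, with little spread within the *hMYC* groups and no overlap with *hlk*. Its difference was 0.83 ± 0.09 in *hMYC-2* (limma adjusted p = 1.97e-05) and 0.75 ± 0.09 in *hMYC-1* (limma adjusted p = 0.000117). *wdr36* rose by 0.58 in *hMYC-2* (limma adjusted p = 0.00292) and 0.54 in *hMYC-1* (limma adjusted p = 0.00981). *utp6*, of the same block, was not called, with differences of −0.04 in *hMYC-2* and 0.01 in *hMYC-1* (limma adjusted p = 0.821 and 0.956). The UTP-A genes *utp15* and *wdr43*, whose complex links the processome to rRNA transcription, differed by 0.43 and 0.36 in *hMYC-2* and by 0.41 and 0.39 in *hMYC-1*. Of these, *utp15* was called in both and *wdr43* in neither (limma adjusted p = 0.0536 and 0.0704). With the replicate block *utp15* was not called in *hMYC-2* or *hMYC-1* (limma adjusted p = 0.0601 and 0.0848), and without *hlk* replicate 2 *wdr43* was called in both, at 0.52 in *hMYC-2* and 0.54 in *hMYC-1* (limma adjusted p = 0.00941 and 0.0124).

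*noc4l*, which escorts the small subunit precursor out of the nucleolus in yeast, was the largest rise of the step in *hMYC-2*. It read 8.02 to 8.46 in *hMYC-2* arrays (median 8.18), 8.16, 8.31, 8.31 and 8.62 in *hMYC-1* arrays, and 7.51, 7.23 and 7.11 in *hlk* arrays. No array of either *hMYC* group came down to the *hlk* range, and the difference was 0.94 ± 0.13 in *hMYC-2* (limma adjusted p = 0.000185) and 1.07 ± 0.14 in *hMYC-1* (limma adjusted p = 0.000158). *nol6*, a processome protein that binds early rRNA precursors, rose by 0.77 ± 0.10 in *hMYC-2* (limma adjusted p = 0.000170) and 0.75 ± 0.11 in *hMYC-1* (limma adjusted p = 0.000466). *utp3* encodes another protein of the processome. It read 7.01 to 7.46 in *hMYC-2* (median 7.21), 7.98, 7.66, 8.24 and 8.24 in *hMYC-1*, and 6.67, 6.45 and 6.08 in *hlk*. Its 3 groups did not overlap at all, with differences from *hlk* of 0.85 ± 0.16 in *hMYC-2* (limma adjusted p = 0.00175) and 1.63 ± 0.17 in *hMYC-1* (limma adjusted p = 2.36e-05).

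The other small subunit genes lay closer to the threshold or were not called. *nob1*, the nuclease that trims the end of the small subunit rRNA, differed by 0.31 in *hMYC-2* (limma adjusted p = 0.0480) and 0.36 in *hMYC-1* (limma adjusted p = 0.0448). Its call ended when any 1 of 10 arrays was left out in *hMYC-2* and any 1 of 8 in *hMYC-1*, with limma adjusted p values of up to 0.160 and 0.144, and with the replicate block (limma adjusted p = 0.245 and 0.139). *bysl*, which stays with the small subunit precursor until late, was called in *hMYC-2* at 0.48 (limma adjusted p = 0.0372) and not in *hMYC-1* at 0.37 (limma adjusted p = 0.146). Its *hlk* values were 8.30, 9.15 and 9.09, and without the low replicate 1 the differences were 0.20 in *hMYC-2* and 0.10 in *hMYC-1* (limma adjusted p = 0.110 and 0.515). With the replicate block *bysl* was not called in *hMYC-2* (limma adjusted p = 0.165). *imp3* and *imp4*, which hold the snoRNA to the precursor, *tsr1*, which caps the late small subunit, and *nol10* were not called, with differences of 0.09 to 0.26 in *hMYC-2* and of 0.00 to 0.29 in *hMYC-1*. Without *hlk* replicate 1, *imp3* was called in *hMYC-2* at 0.39 (limma adjusted p = 0.0478). A second *imp4* probe set was called higher in *hMYC-1* at 0.47 and not in *hMYC-2* at 0.34 (limma adjusted p = 0.0299 and 0.0719).

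Of the 18 large subunit genes, 12 rose in *hMYC-2* (6 with the replicate block) and 11 in *hMYC-1* (7 with the block), 1 fell in each, and the medians were 0.52 in *hMYC-2* and 0.54 in *hMYC-1*. *noc2l* encodes a factor that binds large subunit precursors in the nucleolus. It read 7.82 to 8.55 in *hMYC-2* arrays (median 8.08), 8.33, 8.60, 8.48 and 8.91 in *hMYC-1* arrays, and 6.57, 7.32 and 7.05 in *hlk* arrays. The groups did not overlap with *hlk*, and the difference was 1.15 ± 0.20 in *hMYC-2* (limma adjusted p = 0.000879) and 1.60 ± 0.21 in *hMYC-1* (limma adjusted p = 0.000159). *noc3l*, whose product partners it in yeast, was not called, with differences of −0.06 in *hMYC-2* and 0.12 in *hMYC-1* (limma adjusted p = 0.788 and 0.675). *rrs1*, which helps to bring a smaller ribosomal RNA into the precursor, read 8.84 to 9.20 in *hMYC-2* (median 8.94), 8.64, 8.78, 8.92 and 9.11 in *hMYC-1*, and 8.42, 7.97 and 7.52 in *hlk*, a rise of 1.01 ± 0.17 in *hMYC-2* (limma adjusted p = 0.000718) and 0.89 ± 0.18 in *hMYC-1* (limma adjusted p = 0.00361).

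*pes*, *bop1* and *wdr12* encode the PeBoW complex, which is needed to process the large subunit rRNA and whose proteins depend on each other in mammalian cells. Of its genes, *pes* and *wdr12* rose and *bop1* fell by the probe set shown. Other *bop1* probe sets were not called, at −0.39 and −0.44 in *hMYC-2* and −0.39 and −0.32 in *hMYC-1*. *pes* read 8.29 to 8.76 in *hMYC-2* arrays (median 8.52), 8.33, 8.66, 8.48 and 8.47 in *hMYC-1* arrays, and 7.58, 7.87 and 7.81 in *hlk* arrays, a rise of 0.77 ± 0.11 in *hMYC-2* (limma adjusted p = 0.000287) and 0.73 ± 0.12 in *hMYC-1* (limma adjusted p = 0.000982). *wdr12* read 8.05 to 8.38 in *hMYC-2* (median 8.09), 8.08, 8.15, 7.99 and 8.02 in *hMYC-1*, and 7.37, 7.53 and 7.22 in *hlk*, a rise of 0.75 ± 0.09 in *hMYC-2* (limma adjusted p = 7.21e-05) and 0.69 ± 0.10 in *hMYC-1* (limma adjusted p = 0.000348). Both were above every *hlk* array in every *hMYC* array. *bop1*, shown by a probe set whose probes can match other transcripts, read 6.70 to 7.05 in *hMYC-2* (median 6.85), 6.69, 7.02, 7.03 and 6.98 in *hMYC-1*, and 8.00, 8.44 and 8.27 in *hlk*. Every *hMYC* array was below every *hlk* array, the difference was −1.37 ± 0.12 in *hMYC-2* (limma adjusted p = 5.15e-06) and −1.31 ± 0.13 in *hMYC-1* (limma adjusted p = 1.96e-05), and these were the smallest adjusted p values of the 44 genes in both comparisons.

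Among the other large subunit genes, *rrp1*, which acts in early large subunit assembly, read 8.11 to 8.52 in *hMYC-2* (median 8.40), 8.54, 8.72, 8.21 and 8.41 in *hMYC-1*, and 6.60, 8.05 and 7.70 in *hlk*. Its rise of 0.93 in *hMYC-2* and 1.02 in *hMYC-1* (limma adjusted p = 0.0137 and 0.0156) leaned on *hlk* replicate 1, and was 0.50 in *hMYC-2* and 0.60 in *hMYC-1* without it (limma adjusted p = 0.0264 and 0.0173). *ppan* and *nop16*, which encode large subunit assembly factors, and the helicase gene *ddx18* rose by 0.54, 0.69 and 0.40 in *hMYC-2* and by 0.76, 0.73 and 0.56 in *hMYC-1*. *ddx27*, for another helicase, rose by 0.61 in *hMYC-2* (limma adjusted p = 0.00565) and 0.51 in *hMYC-1* (limma adjusted p = 0.0278), *gnl3*, which encodes nucleostemin, by 0.49 in *hMYC-2* (limma adjusted p = 0.0277) and 0.53 in *hMYC-1* (limma adjusted p = 0.0358), and *nop2*, an rRNA methyltransferase, by 0.43 in *hMYC-2* (limma adjusted p = 0.0110) and 0.37 in *hMYC-1* (limma adjusted p = 0.0417). *mrto4*, whose protein holds the place of a stalk protein during assembly, was called in *hMYC-2* at 0.57 (limma adjusted p = 0.0211) and not in *hMYC-1* at 0.36 (limma adjusted p = 0.187).

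Several of these calls ended when 1 array was left out. Without *hlk* replicate 2, *nop16* had differences of 0.48 in *hMYC-2* and 0.52 in *hMYC-1* (limma adjusted p = 0.0528 and 0.0578), *mrto4* in *hMYC-2* had 0.40 (limma adjusted p = 0.107), and *gnl3* had 0.35 in *hMYC-2* and 0.39 in *hMYC-1* (limma adjusted p = 0.132 and 0.139). Without *hlk* replicate 3, *nop2* had 0.34 in *hMYC-2* and 0.28 in *hMYC-1* (limma adjusted p = 0.0569 and 0.153) and *ddx27* in *hMYC-1* had 0.33 (limma adjusted p = 0.109). Without *hlk* replicate 1, *gnl3* had 0.47 in *hMYC-2* and 0.50 in *hMYC-1* (limma adjusted p = 0.0778 and 0.0843). In *hMYC-1* the call of *nop2* ended without any 1 of 10 arrays, that of *gnl3* without any 1 of 5 and that of *ddx27* without any 1 of 4, and in *hMYC-2* that of *gnl3* ended without any 1 of 4. Of all 27 calls in *hMYC-2*, 20 were kept without each array in turn, and of the 26 in *hMYC-1*, 19 were. The large subunit genes *ddx56*, *nip7*, *gnl3l* and *wdr74* were called in neither comparison. *nip7*, which acts in rRNA processing, had differences of −0.20 in *hMYC-2* and −0.19 in *hMYC-1* (limma adjusted p = 0.190 and 0.291), and *gnl3l*, a GTPase related to nucleostemin, −0.12 in *hMYC-2* and −0.04 in *hMYC-1* (limma adjusted p = 0.559 and 0.905). *wdr74* read 5.42 to 6.08 in *hMYC-2* arrays and 5.37 to 6.17 in *hMYC-1* arrays, against 5.03 to 5.45 in *hlk* arrays. It was within background in 4 of the 6 *hMYC-2* arrays, 2 of the 4 *hMYC-1* arrays and all 3 *hlk* arrays. Without *hlk* replicate 1 it was called higher in *hMYC-2* and in *hMYC-1* (limma adjusted p = 0.0488 and 0.0452).

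With the replicate block, 6 of the 12 large subunit rises in *hMYC-2* were not called. These were *nop2* at 0.38 (limma adjusted p = 0.123), *rrp1* at 0.88 (limma adjusted p = 0.0619), *ddx18* at 0.36 (limma adjusted p = 0.0838), *nop16* at 0.63 (limma adjusted p = 0.0983), *mrto4* at 0.52 (limma adjusted p = 0.124) and *gnl3* at 0.44 (limma adjusted p = 0.147). The rises of *noc2l*, *rrs1*, *pes*, *wdr12*, *ppan* and *ddx27* in *hMYC-2* were called with the block too. Those of *ppan* and *ddx27* were not called after the shift to equal *actb1* and *eef1a1l1* (limma adjusted p = 0.0887 and 0.0839). In *hMYC-1*, the calls of *nop2*, *ddx27*, *nop16* and *gnl3* ended with the replicate block, with limma adjusted p values of 0.182, 0.0764, 0.0930 and 0.152.

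Of the 3 genes for subunits of RNA polymerase I, 0 were called in *hMYC-2* (1 at an unadjusted limma p under 0.05, 0 by the shrinkage t) and 1 rose in *hMYC-1*. Of all probe sets, 11.0% were called higher and 13.7% lower in *hMYC-2*, and 9.13% and 9.63% in *hMYC-1*. In *hMYC-2*, 36.6% had an unadjusted limma p under 0.05, and the shrinkage t called 7.95% higher and 7.64% lower. With 3 genes, this step cannot be told apart from these shares. *polr1c*, a subunit shared with RNA polymerase III, read 7.50 to 7.89 in *hMYC-2* arrays (median 7.80), 7.72, 8.06, 8.04 and 8.22 in *hMYC-1* arrays, and 7.74, 7.27 and 7.11 in *hlk* arrays. It was called in *hMYC-1* at 0.64 ± 0.16 (limma adjusted p = 0.0121), though *hlk* replicate 1 lay just above the lowest *hMYC-1* array, and not in *hMYC-2* at 0.37 ± 0.14 (limma adjusted p = 0.0809). Without *hlk* replicate 1 it was called in *hMYC-2* too, at 0.56 (limma adjusted p = 0.0102), and without *hlk* replicate 3 it was not called in *hMYC-1*, at 0.51 (limma adjusted p = 0.0580), nor was it with the replicate block, at 0.58 (limma adjusted p = 0.0779). *polr1b*, the second largest subunit, differed by 0.08 in *hMYC-2* and 0.22 in *hMYC-1* (limma adjusted p = 0.747 and 0.406). *polr1a*, the largest subunit, varied more than any other of the 44 genes within both *hMYC* groups, at 8.06, 6.33, 6.36, 6.42, 7.64 and 6.06 in *hMYC-2* and 5.85, 7.31, 6.70 and 6.50 in *hMYC-1*, against 6.63, 6.74 and 6.48 in *hlk* arrays. Its means of 6.81 ± 0.82 in *hMYC-2* (SD, n = 6), 6.59 ± 0.60 in *hMYC-1* (n = 4) and 6.62 ± 0.13 in *hlk* (n = 3) did not differ beyond this spread, with differences of 0.20 ± 0.43 in *hMYC-2* and −0.03 ± 0.46 in *hMYC-1* (limma adjusted p = 0.779 and 0.980).

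To give each array a pathway level, the *hlk* mean of every gene was subtracted from its log2 value and the 44 results were averaged. It was 0.32 to 0.58 in *hMYC-2* arrays (mean 0.44 ± 0.09 SD, n = 6), 0.37 to 0.60 in *hMYC-1* arrays (0.50 ± 0.11, n = 4), and −0.08 to 0.04 in *hlk* arrays (0.00 ± 0.06, n = 3). Each *hMYC* fish was thus above each *hlk* fish, and the ranges of both *hMYC* groups overlapped. The same was so for nucleolar, box C/D, small subunit and large subunit genes. For rRNA transcription the ranges overlapped, at −0.12 to 0.78 in *hMYC-2*, −0.09 to 0.53 in *hMYC-1* and −0.20 to 0.12 in *hlk*. For the 2 box H/ACA genes, *hMYC-1* arrays at 0.27 to 0.52 were above and *hMYC-2* arrays at −0.01 to 0.43 overlapped the *hlk* range of −0.15 to 0.26.

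**Figure D4:**
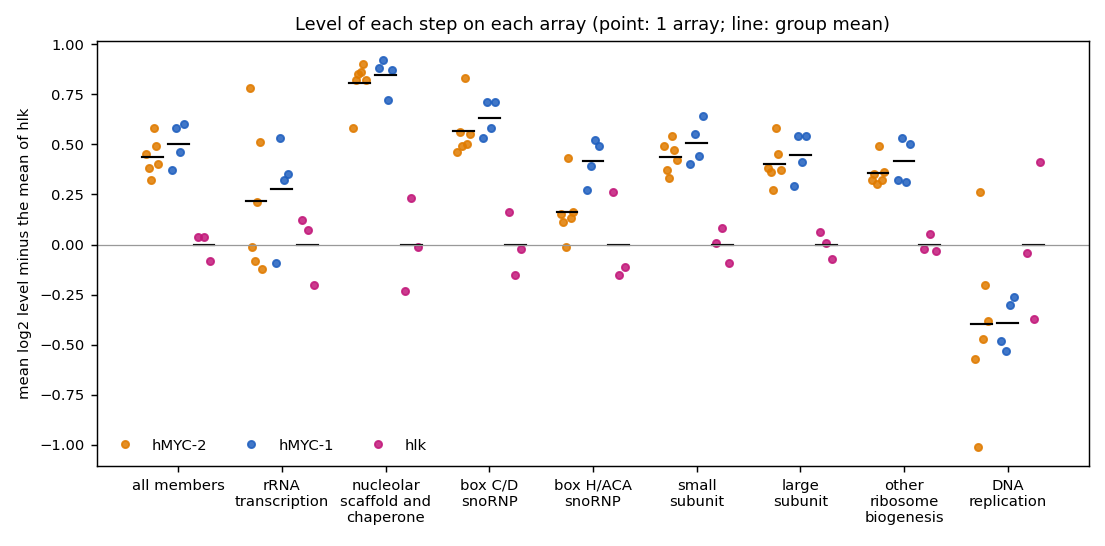
Mean log2 level of each step on each array, relative to the mean of *hlk*; points are arrays of *hMYC-2* (orange), *hMYC-1* (blue) and *hlk* (magenta), lines are group means. Over all 44 genes the *hMYC* arrays lie at 0.32 to 0.60 and the *hlk* arrays at −0.08 to 0.04. For DNA replication genes the *hMYC* arrays lie lower on average, spread more and overlap with *hlk*.

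Some arrays often lay at the edge of their group. *hMYC-2* replicate 4 was the highest of its group for 23 of the 44 genes, and replicate 3 the lowest for 19. In *hMYC-1*, replicate 1 was the lowest for 26 genes, and in *hlk*, replicate 1 was the highest for 22 and replicate 3 the lowest for 24. The median SD of a gene was 0.16 in *hMYC-2*, 0.16 in *hMYC-1* and 0.21 in *hlk*, against 0.19, 0.20 and 0.29 over all probe sets with a mean above background. In *hlk* the widest spread was that of *rrp1*, with an SD of 0.76.

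Between the *hMYC* groups, 1 of the 44 genes was called. In *hMYC-2* against *hMYC-1*, no gene rose, *utp3* fell and 43 were not called, beside 0.419% of all probe sets called higher and 0.116% lower (1.01% and 0.242% of the 4544 genes). The unadjusted limma p was under 0.05 for 4 of the 44 genes, all lower in *hMYC-2*, and for 11.3% of all probe sets. The shrinkage t that was run as an alternative called 0 higher and 1 lower, beside 0.323% and 0.110% of all probe sets. The median difference of the 44 genes was −0.04, as over all probe sets. *utp3* differed by −0.78 ± 0.14 (n = 6 and 4, limma adjusted p = 0.0325), with all 6 *hMYC-2* arrays below all 4 *hMYC-1* arrays, beside 2.30% of all probe sets separated downward and 1.38% upward. The call ended when any 1 of 7 arrays was left out, with a limma adjusted p of up to 0.147 and a difference of −0.71 without *hMYC-1* replicate 3. The next largest difference, −0.45 ± 0.18 for *noc2l*, was not called (limma adjusted p = 0.369).

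Of the 44 genes, 9 had more than 1 probe set, and these did not always read alike. For *mybbp1a*, all 4 probe sets had differences above 0, with the other 3 at 1.59, 1.77 and 1.55 in *hMYC-2* and 1.40, 1.79 and 0.76 in *hMYC-1*, the last value not called (limma adjusted p = 0.224). For *bop1*, all 4 had differences below 0. The probe set shown is of a type whose probes can match other transcripts. A second read −1.35 in *hMYC-2* (limma adjusted p = 1.93e-06) and −1.51 in *hMYC-1* (limma adjusted p = 1.88e-06). It shares the name of the probe set shown apart from the type suffix, so it is not taken as an independent reading. The other 2 of *bop1* read −0.39 and −0.44 in *hMYC-2* and −0.39 and −0.32 in *hMYC-1* and were not called. For *npm1a*, a second probe set read −0.05 in *hMYC-2* and 0.13 in *hMYC-1*, and for *nob1* a second read 0.00 in *hMYC-2* and −0.07 in *hMYC-1*, and neither was called. With the mean of all probe sets of a gene in place of the brightest, 25 genes rose in *hMYC-2* and 25 in *hMYC-1*, and *bop1* fell by 0.89 in *hMYC-2* and 0.88 in *hMYC-1* (limma adjusted p = 0.000155 and 0.000383). In that fit 11.7% of the 13500 entries tested were called higher and 14.5% lower in *hMYC-2*, and 9.67% and 10.1% in *hMYC-1*.

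**Figure D5:**
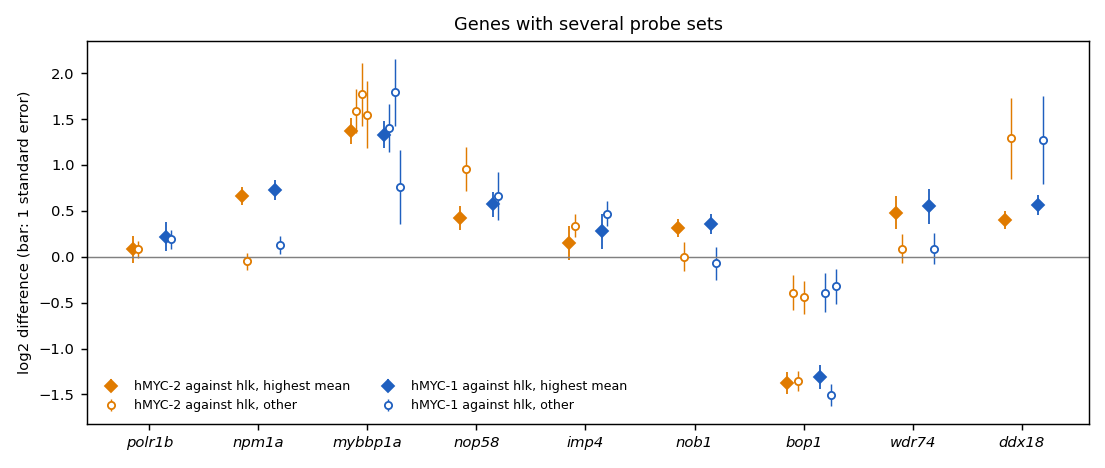
Log2 difference from *hlk* of each probe set of the 9 genes with several, in *hMYC-2* (orange) and *hMYC-1* (blue); diamonds are the brightest probe set, circles the others, bars 1 standard error. The 4 probe sets of *mybbp1a* lie above 0 and the 4 of *bop1* below 0, while the second probe sets of *npm1a* and *nob1* lie near 0.

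A wider list of ribosome biogenesis genes outside the 44 leaned the same way. The genes of this list were chosen with earlier results of these data known and read on the same arrays, so they are no independent support. Of 89 such genes measured, 32 rose and 4 fell in *hMYC-2*, or 36.0% called higher, and 38 rose and 3 fell in *hMYC-1*, or 42.7%. These shares lay below the 59.1% and 56.8% of the 44 genes. Of the 4544 named genes above background, 19.1% were called higher in *hMYC-2* and 17.0% in *hMYC-1*, and of all probe sets 11.0% and 9.13%. The medians were 0.35 in *hMYC-2* and 0.40 in *hMYC-1*. *mak16*, a large subunit assembly factor, read 7.45 to 7.92 in *hMYC-2* arrays (median 7.81), 7.98 to 8.47 in *hMYC-1* arrays (median 8.19) and 5.05 to 6.12 in *hlk* arrays. It was called higher in *hMYC-2* (limma adjusted p = 6.56e-06) and in *hMYC-1* (limma adjusted p = 3.16e-06), but 1 of the 3 *hlk* arrays and the *hlk* mean of 5.64 were within background, so no size is given. *lyar*, a nucleolar protein, rose by 1.35 ± 0.11 in *hMYC-2* (limma adjusted p = 2.67e-06) and 1.39 ± 0.12 in *hMYC-1* (limma adjusted p = 5.45e-06). *sdad1* rose by 1.12 ± 0.15 in *hMYC-2* (limma adjusted p = 0.000145) and 1.50 ± 0.16 in *hMYC-1* (limma adjusted p = 2.93e-05). *mrm1*, a mitochondrial rRNA methyltransferase, was called higher in *hMYC-2* (limma adjusted p = 0.00275) and in *hMYC-1* (limma adjusted p = 0.00120), with a mean of 6.78 in *hMYC-2* and 7.11 in *hMYC-1*, and with 2 of the 3 *hlk* arrays within background. *taf1c*, a subunit of the polymerase I selectivity factor, was called higher in *hMYC-2* and in *hMYC-1* (limma adjusted p = 0.000522 and 0.00948). It was within background in 3 of the 6 *hMYC-2* arrays, 3 of the 4 *hMYC-1* arrays and all 3 *hlk* arrays. No size is given for *mrm1* or *taf1c*.

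Fewer genes of this list fell. *nol12*, an rRNA-processing factor, was 5.94 on average in *hMYC-2* and 6.12 in *hMYC-1*, against 7.08 in *hlk*, with differences of −1.14 ± 0.10 in *hMYC-2* (limma adjusted p = 5.90e-06) and −0.97 ± 0.11 in *hMYC-1* (limma adjusted p = 5.93e-05). Its *hMYC-2* arrays read 5.65 to 6.12, with 1 of the 6 within background, so signal over background limits the size of this fall. *ruvbl1*, an ATPase that helps to build box C/D particles, differed by −0.48 in *hMYC-2* and −0.47 in *hMYC-1* (limma adjusted p = 0.00409 and 0.00963), and *nol9*, a kinase of rRNA ends, by −0.37 in *hMYC-2* and −0.31 in *hMYC-1* (limma adjusted p = 0.00641 and 0.0349). *polr1h*, a small subunit of RNA polymerase I, was called lower in *hMYC-2* at −0.64 (limma adjusted p = 0.0125) and not in *hMYC-1* at −0.48 (limma adjusted p = 0.0829). Further rRNA transcription genes of this list are named after their values were seen. *ubtf* rose by 0.72 in *hMYC-2* and 0.78 in *hMYC-1* (limma adjusted p = 0.00127 and 0.00152), and *rrn3* by 0.49 and 0.52 (limma adjusted p = 0.0248 and 0.0342). *polr1e* and *polr1g* were called higher in *hMYC-1* alone, at 0.40 and 0.62 (limma adjusted p = 0.0359 and 0.0285), and *taf1a* in neither.

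Genes of DNA replication, which dividing cells need, were counted in the same fit. Of 27 measured, 0 rose, 1 fell in *hMYC-2* (*cdc45*) and 2 fell in *hMYC-1* (*cdc45* and *mcm4*), named after their values were seen. These counts stand beside 11.0% of all probe sets called higher and 13.7% lower in *hMYC-2*, and 9.13% and 9.63% in *hMYC-1*. At an unadjusted limma p under 0.05, 1 was higher and 7 were lower in *hMYC-2* and 0 were higher and 5 lower in *hMYC-1*, beside 36.6% and 30.3% of all probe sets in either direction. The shrinkage t called 0 higher in both, 1 lower in *hMYC-2* and 2 lower in *hMYC-1*, beside 7.64% and 3.24% of all probe sets called lower. The medians were −0.37 in *hMYC-2* and −0.28 in *hMYC-1*. The difference was above 0 for 2 of the 27 genes in *hMYC-2* and for 3 in *hMYC-1*, against 47.6% and 48.9% of the 4544 genes. The mean level of the 27 genes per array, relative to *hlk*, overlapped between the groups. It was −1.01 to 0.26 in *hMYC-2*, −0.53 to −0.26 in *hMYC-1* and −0.37 to 0.41 in *hlk*. *cdc45* was within background in 5 of the 6 *hMYC-2* arrays and all 4 *hMYC-1* arrays. *pcna*, the sliding clamp of the replication fork, averaged 11.30 ± 0.54 in *hMYC-2* and 11.53 ± 0.21 in *hMYC-1*, against 11.69 ± 0.50 in *hlk* (SD, n = 6, 4 and 3), with no call (limma adjusted p = 0.363 and 0.787). *mcm7*, of the replicative helicase, averaged 9.94 ± 0.33 in *hMYC-2* and 10.14 ± 0.19 in *hMYC-1*, against 10.24 ± 0.40 in *hlk*, with no call either (limma adjusted p = 0.310 and 0.816).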

How the data were processed

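RNA of GFP+ ALL cells was hybridised to Affymetrix Zebrafish Genome arrays after Trizol extraction and labelling from the 3′ end. The authors normalized all arrays together with justRMA (background correction, quantile normalization and a summary of the probes of each probe set), and the deposited values are log2 levels, which were used as given. Scanner files were not used here, so these steps were not repeated. Of 15617 probe sets, 115 controls were left out. Gene symbols came from the platform annotation and were updated through gene IDs against RefSeq (10711 of 10795 single symbols matched, 1 changed). The table held 0 columns of other samples. Arrays carry no read depth, and their number limits the precision.

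Groups came from the sample titles. R 4.3.3 and limma 3.58.1 fitted 1 mean per group over the 13 arrays (lmFit and eBayes), and p-values were adjusted by Benjamini-Hochberg over 15502 probe sets, with a threshold of 0.05. They measure the spread between fish. The fit was tested on simulated data. The study's shrinkage t was rewritten from its formulas because its packages were not at hand, and was used as an alternative, with the form of its null distribution chosen after the data were seen.

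Replicate numbers were checked as pairs. Same-numbered *hMYC-2* and *hlk* arrays deviated together (correlations of 0.32, 0.23 and 0.24), so the fit with the replicate block is given beside that comparison. Labels do not say what the numbers share. In the other 2 comparisons correlations ran from −0.32 to 0.17, and results with the block are given there too. Correlations of differently numbered arrays are not given, so these values do not establish pairs. The block adds terms to the fit, so a call that ends with it can reflect less power.

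The genes and lists were chosen with earlier results of these data known. Any of the 44 genes could be named. From the wider ribosome biogenesis list, up to 4 called genes with the largest rise and 4 with the largest fall in each comparison with *hlk* were named, and from other lists the 2 genes with the highest mean. Further rRNA transcription genes of the wider list were named after their values were seen. Alternatives were other priors, array weights, the groups compared alone, a filter on low values, further quantile normalization, shifts to housekeeping genes, the mean of all probe sets, a minimum of 2-fold, the block and leaving out each array.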

Additional observations from a re-analysis of the deposited data

Results flagged for a closer look

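In 88 groups of 4 or 6 arrays, 6 held an array far from the others of its group for 1 gene. Such a gap arises by chance in about 1 in 20 groups. *mybbp1a* read 9.36 in *hMYC-2* replicate 1 and 9.69 to 9.79 in the other *hMYC-2* arrays. *imp3* read 8.16 in *hMYC-2* replicate 4 and 7.67 to 7.83 in the others, and *wdr12* read 8.38 in the same array and 8.05 to 8.11 in the others. *nol6* read 8.18 in *hMYC-1* replicate 4 and 8.06 to 8.07 in the other *hMYC-1* arrays. *bop1* read 6.69 in *hMYC-1* replicate 1 and 6.98 to 7.03 in the others, and *ddx56* read 7.73 in *hMYC-1* replicate 2 and 7.36 to 7.40 in the others.

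*utp3* was the gene of the 44 whose difference from *hlk* differed between *hMYC-2* and *hMYC-1* by limma's test, by −0.78 (adjusted p = 0.0325), and this was −0.82 with the replicate block (adjusted p = 0.150).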

How the results depend on the processing

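No result changed direction under a setting that was run where it had been called. A minimum of 2-fold left 4 genes higher in *hMYC-2* and 6 in *hMYC-1* against *hlk*, and 0 lower in *hMYC-2* against *hMYC-1*. These counts stand beside 5.12% and 4.33% of all probe sets higher, and 0.0129% lower in the last comparison. With the groups compared alone, 16 rose in *hMYC-1*, and the shrinkage t called 12 there, beside 6.53% and 4.40% of all probe sets. With a normal null of estimated scale, added after the data were seen, it called 4 in *hMYC-2* and 12 in *hMYC-1*, beside 3.07% and 4.97% of all probe sets. With a Student null of estimated scale, also added then, it called 0 higher and 0 lower in all 3 comparisons. It called 0 of all 15502 probe sets too, so this setting cannot set these genes apart from the rest.

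With the replicate number as a block, 16 genes rose in *hMYC-2* and 17 in *hMYC-1* against *hlk*, *bop1* fell in both, and 0 were lower in *hMYC-2* against *hMYC-1*. With the block, 7.54% of all probe sets were called higher and 7.91% lower in *hMYC-2*, and 6.93% and 6.52% in *hMYC-1*. In *hMYC-2* against *hMYC-1*, 0.0194% of all probe sets were called lower with it. Shifting arrays to equal *actb1*, *eef1a1l1* and *gapdh* gave medians of 0.61 and 0.74, and moved the median of all probe sets to 0.07 and 0.19. Shifting to *actb1* and *eef1a1l1* alone, added because *gapdh* was within background in *hMYC* ALL, gave 14 and 15 genes higher and a median of 0.33 in *hMYC-2*, with all probe sets at −0.21 and −0.09. Calls that the block kept and this shift ended were *dkc1*, *wdr36*, *ppan* and *ddx27* in *hMYC-2* (limma adjusted p = 0.0501, 0.0724, 0.0887 and 0.0839). In *hMYC-1* they were *ncl*, *wdr36* and *ddx18* (limma adjusted p = 0.0572, 0.110 and 0.0753). Of all probe sets called, 44.6% and 48.7% were higher as deposited, 66.2% and 74.9% after the first shift, and 28.8% and 41.4% after the other.

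Leaving out each array in turn gave 22 to 27 genes higher in *hMYC-2* and 20 to 26 in *hMYC-1* against *hlk*, with 1 lower each time, and 0 to 1 lower in *hMYC-2* against *hMYC-1*. In these fits 9.53% to 11.3% of all probe sets were called higher in *hMYC-2* and 7.60% to 9.62% in *hMYC-1* against *hlk*. Of all probe sets, 0.0194% to 0.187% were called lower in *hMYC-2* against *hMYC-1*. Small differences in dim genes such as *wdr74* are limited by signal over background. The causes of these changes were not tested.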
